A study of Mus musculus with 12 samples.

Results

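The genes described here are 9 genes known from the allantois, the hindlimb bud and the lateral plate mesoderm of the mouse embryo: Pitx1, Tbx4, Tbx2, Tbx3, Foxf1, Fendrr, Prdm6, Capn6 and Hapln1. They are 9 of 40039 merged loci measured. They were chosen by earlier results on the same libraries, namely their levels at day 6 of differentiation, their rise in wild-type cells and their difference between genotypes. For these genes, comparisons that involve day 6 are therefore given as descriptions, without p-values, and only the comparison of the genotypes at day 0 is tested.

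Poly(A) RNA was sequenced from Notch1-deleted (Notch1-/-) and wild-type (WT) C57BL/6J mouse embryonic stem cells, each on day 0, before differentiation, and on day 6. The day 6 cells were embryoid bodies, which are aggregates formed in hanging drops of 1000 cells under a protocol for cardiac differentiation. All stem cells were grown with the factor LIF at 1000 U/ml, either on a feeder layer of mouse embryonic fibroblasts or on gelatinized plates, and the labels do not say which library had which. The 4 groups, Notch1-/- day 6, WT day 6, Notch1-/- day 0 and WT day 0, had 3 libraries each, 12 in all. The design text calls them biological replicates, but nothing says that they were separate cultures or more than 1 clone of each genotype, so the spread between libraries may be technical.

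Total counts lay between 100637179 and 134662426 per library, so that counting error is small for all but the weakest loci. Notch1 itself had 4.90 to 6.80 CPM in Notch1-/- day 6 and 30.8 to 38.0 CPM in WT day 6, and 3.80 to 4.59 CPM in Notch1-/- day 0 and 24.7 to 61.6 CPM in WT day 0. The labels and the target gene therefore matched in every library. CPM is the count scaled by the TMM-normalised library size, so that libraries of different depth can be compared. A log2 fold change (log2FC) is from edgeR with its standard error (SE), Notch1-/- over WT or day 6 over day 0. Means are given with the SD over 3 libraries.

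The allantois is the extraembryonic mesoderm that grows from the posterior end of the embryo and becomes the umbilical vessels. The hindlimb bud arises from neighbouring posterior lateral plate mesoderm, and both tissues use the T-box factor Tbx4. In the hindlimb, the homeodomain factor Pitx1 acts upstream of Tbx4. In the lateral plate and allantois, the forkhead factor Foxf1 is needed for growth of the tissue, and the long noncoding RNA Fendrr is transcribed away from it on the opposite strand.

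At day 6 the 8 genes that could be read fell into 2 sets of equal size. Pitx1, Tbx4, Hapln1 and Capn6 had under 5% of the WT level in Notch1-/- embryoid bodies and are called lost here. Fendrr, Foxf1, Prdm6 and Tbx3 kept 5% or more and are called lowered. Nearest to the limit lay Capn6, with 4.81% of the WT mean, and Fendrr, with 13.99%. Tbx2 could not be read by itself: its locus also held the exons of Bcas3 and Ppm1d. The limit is a description of these libraries, since the same levels led to the choice of the genes.

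Promoter sequences were available for Tbx4, Hapln1 and Capn6 among the lost genes and for Fendrr among the lowered genes. They are shown so that the starts of genes from both sets can be set side by side. Each has 300 bases, 250 before and 50 after the start site, from RefSeq on GRCm38.p6, written 5′ to 3′ along the gene. Capitals mark matches to the motifs searched.
Tbx4, chr11:85896515-85896814, plus strand: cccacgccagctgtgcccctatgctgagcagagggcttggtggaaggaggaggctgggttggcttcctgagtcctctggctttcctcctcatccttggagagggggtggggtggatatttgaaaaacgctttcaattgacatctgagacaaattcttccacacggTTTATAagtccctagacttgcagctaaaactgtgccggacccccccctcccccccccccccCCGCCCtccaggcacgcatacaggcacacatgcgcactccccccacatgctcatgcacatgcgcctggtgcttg
Hapln1, chr13:89540386-89540685, plus strand: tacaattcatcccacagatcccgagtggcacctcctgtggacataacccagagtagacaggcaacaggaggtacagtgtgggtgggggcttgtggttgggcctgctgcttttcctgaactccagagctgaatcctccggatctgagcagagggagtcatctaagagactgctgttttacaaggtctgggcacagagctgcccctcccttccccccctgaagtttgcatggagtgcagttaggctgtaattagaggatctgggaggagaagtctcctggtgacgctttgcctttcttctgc
Capn6, chrX:143827363-143827662, minus strand: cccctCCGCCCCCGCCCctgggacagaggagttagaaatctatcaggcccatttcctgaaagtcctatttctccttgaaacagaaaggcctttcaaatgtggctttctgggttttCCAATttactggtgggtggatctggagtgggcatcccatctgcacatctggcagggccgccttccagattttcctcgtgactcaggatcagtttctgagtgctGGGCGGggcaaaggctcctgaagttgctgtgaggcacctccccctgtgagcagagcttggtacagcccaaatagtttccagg
Fendrr, chr8:121083061-121083360, minus strand: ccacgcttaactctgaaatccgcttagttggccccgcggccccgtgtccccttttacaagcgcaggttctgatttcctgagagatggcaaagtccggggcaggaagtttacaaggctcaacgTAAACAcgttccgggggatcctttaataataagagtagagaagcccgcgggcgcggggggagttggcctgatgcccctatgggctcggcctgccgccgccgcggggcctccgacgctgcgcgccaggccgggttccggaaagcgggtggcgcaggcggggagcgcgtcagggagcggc

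The 6 motifs were searched on both strands. TGGGAA is the core bound by RBPJ, the DNA-binding partner of Notch, and GGTGTG is the core bound by T-box factors. TAAACA is bound by forkhead factors, TATAAA by the general factor TBP, GGGCGG by Sp1 and CCAAT by NF-Y. The Fendrr window was rich in CpG, with 31 CpG and 64.7% G and C. Tbx4 had 8 CpG and 59% G and C, Capn6 had 5 CpG and 54.3%, and Hapln1 had 3 CpG and 54.3%. The median over 32851 promoters of the same length was 7 CpG and 52.7% G and C. Fendrr thus stood out from the other 3 in CpG, as a description of single sequences.

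Fendrr held 1 TAAACA, starting at -128, a motif found in 13.4% of all promoters. Tbx4 held 1 TATAAA on the reverse strand at -85, found in 13.6%, and 1 GGGCGG, found in 35.7%. Capn6 held 3 GGGCGG, 2 of them on adjacent stretches at its distal end, and 1 CCAAT, found in 37.4%. No match of any motif lay in the Hapln1 window. TGGGAA and GGTGTG, found in 25.6% and 19.0% of all promoters, were in none of the 4 windows, which says only that these letters are not there.

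Among the lost genes, Pitx1 had the lowest share. Pitx1 specifies hindlimb identity, and its locus was at chr13:55926415-55932970 on the minus strand of mm9, with 5 transcripts. It had 0.576, 0.445 and 0.164 CPM in Notch1-/- day 6, or 64, 57 and 22 counts. In WT day 6 it had 145, 168 and 96.5 CPM, or 17556, 19819 and 11289 counts. The groups were far apart: the Notch1-/- mean was 0.289% of the WT mean (log2FC -8.44, SE 0.45). At day 0 the values were 0.823, 0.712 and 1.04 CPM in Notch1-/- cells and 0.951, 0.665 and 1.00 CPM in WT cells, and these overlapped. Every Notch1-/- embryoid body library lay below every Notch1-/- day 0 library, with a mean of 0.460 times the day 0 mean. Among the 6 genes read from counts, Pitx1 was the only one whose Notch1-/- libraries were lower on day 6 than on day 0 without overlap. The share of all loci that do so was not computed, but edgeR called 18.7% of them lower on day 6 in Notch1-/- cells.

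Tbx4, the T-box factor of hindlimb and allantois, lay at chr11:85699833-85729599 (mm9, plus strand), with 6 transcripts. It had 2.21, 1.89 and 1.27 CPM in Notch1-/- day 6, against 193, 181 and 72.5 CPM in WT day 6. The Notch1-/- mean was 1.203% of the WT mean (log2FC -6.38, SE 0.49). WT library 3 was the low one of its group, and still far above all Notch1-/- libraries. At day 0, Tbx4 had 1.59, 1.60 and 3.23 CPM in Notch1-/- cells and 4.24, 2.096 and 3.94 CPM in WT cells. In Notch1-/- cells the ranges of the 2 days overlapped.

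Hapln1 encodes the link protein that fastens proteoglycans such as versican to hyaluronan. Its locus was at chr13:89680175-89751443 (mm9, plus strand). It had 0.504, 0.0702 and 0.975 CPM in Notch1-/- day 6, which were 56, 9 and 131 counts, and 60.3, 45.3 and 38.2 CPM in WT day 6. The Notch1-/- libraries spread 13.9-fold among themselves and none came near a WT library. Their mean was 1.08% of the WT mean (log2FC -6.53, SE 0.68), and 0.599% without Notch1-/- library 3. At day 0 Hapln1 was close to undetected, with 0.159, 0.106 and 0.271 CPM in Notch1-/- cells and 0.102, 0.102 and 0.0759 CPM in WT cells.

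Capn6 encodes an atypical calpain without protease activity that stabilises microtubules. Its locus was at chrX:140236780-140261955 (mm9, minus strand). It had 57.7, 36.8 and 12.1 CPM in Notch1-/- day 6 and 853, 855 and 510 CPM in WT day 6. The groups did not overlap (log2FC -4.38, SE 0.63). Unlike Pitx1 and Tbx4, it was above its own starting level in Notch1-/- embryoid bodies: the day 0 values were 9.997, 1.60 and 5.34 CPM in Notch1-/- cells, and the day 6 mean was 6.29 times the day 0 mean. In WT day 0 cells it had 2.71, 2.21 and 2.26 CPM. Capn6 was at the limit of the lost set. Without Notch1-/- day 6 library 3 its share was 6.39%, and without WT day 6 library 1 or 2 it was 5.21% or 5.22%, so that 3 genes remained under the limit.

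**Figure D1:**
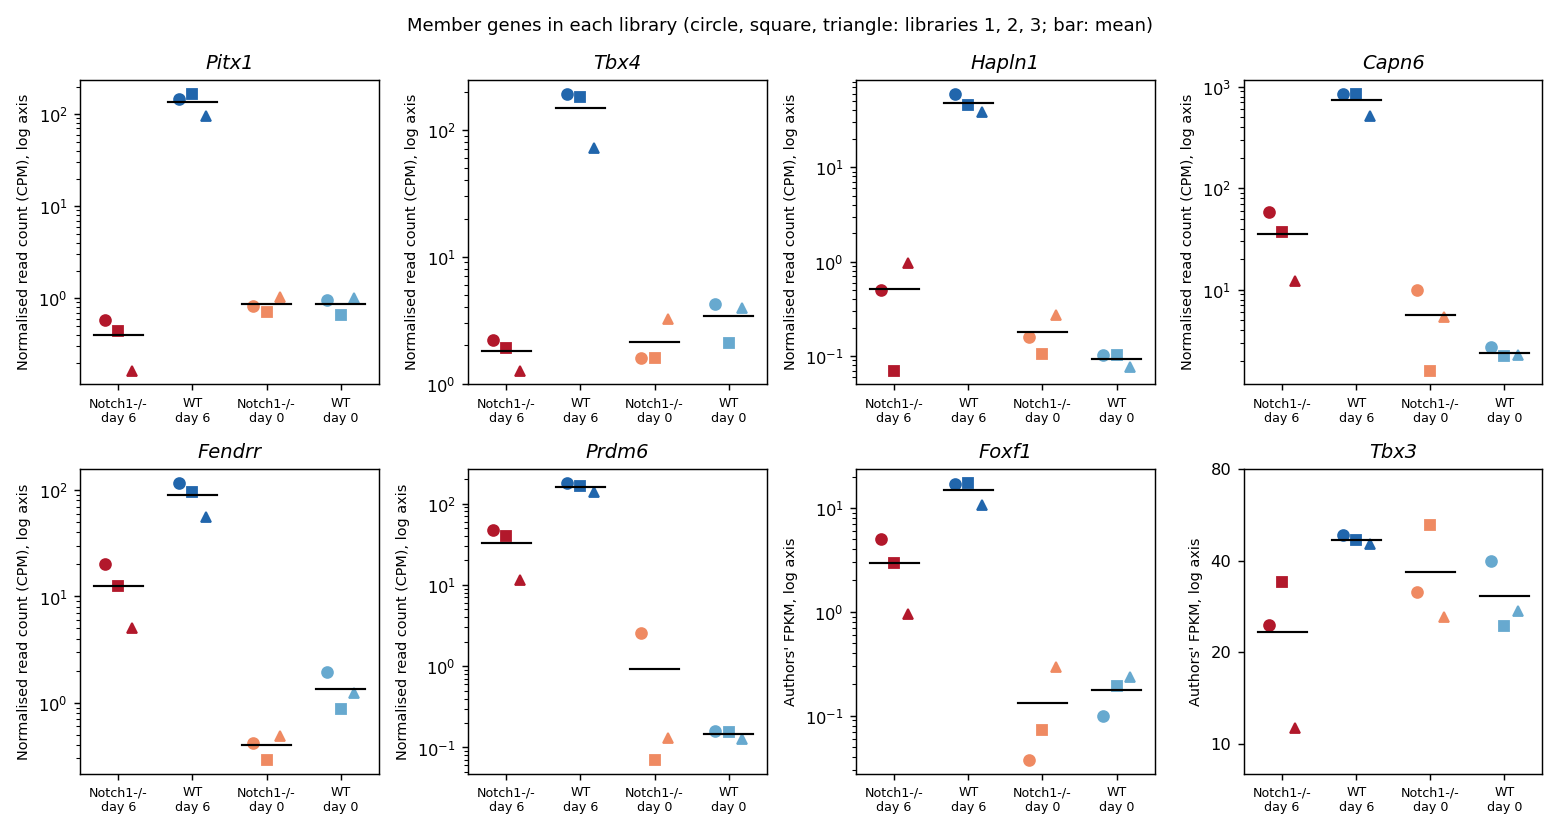
Level of each readable gene in every library, on logarithmic axes: CPM for 6 genes and the authors' FPKM for Foxf1 and Tbx3. Circles, squares and triangles are libraries 1, 2 and 3 and the bar is the group mean. In Notch1-/- day 6, Pitx1 and Tbx4 sit at or under their day 0 levels, and Hapln1 and Tbx3 overlap those of Notch1-/- day 0. Capn6, of the lost genes, and Fendrr, Prdm6 and Foxf1, of the lowered genes, sit between day 0 and WT day 6.

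Among the lowered genes, Fendrr and Foxf1 are neighbours. Fendrr, a noncoding RNA of the lateral plate that binds Polycomb and Trithorax complexes, lay at chr8:123578782-123607928 (mm9, minus strand). Foxf1 lay at chr8:123608078-123612273 on the plus strand. The gap between the facing edges of the 2 merged loci was 149 bases, and these edges need not be the start sites. Fendrr had 19.999, 12.7 and 5.06 CPM in Notch1-/- day 6 and 117, 97.2 and 55.6 CPM in WT day 6. The Notch1-/- mean was 13.99% of the WT mean (log2FC -2.84, SE 0.46), and the groups did not overlap. Unlike Pitx1 and Tbx4, Fendrr was well above its day 0 level in Notch1-/- embryoid bodies, with a mean 31.5 times the day 0 mean.

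Foxf1 had 0 counts in all 12 libraries while 99.8% of its exon length was shared with the Mthfsd locus, so its level is given as the FPKM that the authors deposited. It had 5.01, 2.96 and 0.944 FPKM in Notch1-/- day 6 and 16.8, 17.3 and 10.7 FPKM in WT day 6. The Notch1-/- mean was 19.8% of the WT mean, and 13.02% without Notch1-/- day 6 library 1. On the log2(FPKM + 1) scale, which understates the change of low genes, the difference was -2.13 (SE 0.34). At day 0 it had 0.0376, 0.0729 and 0.291 FPKM in Notch1-/- cells and 0.0989, 0.194 and 0.236 FPKM in WT cells. Both genotypes were thus far above day 0 on day 6, by 22.2 times in Notch1-/- and 84.9 times in WT. Foxf1 was matched by the length of its single intron, 1344 bases, beside Fendrr.

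Prdm6 is a PR-domain factor known from smooth muscle and endothelial precursors. Its locus was at chr18:53614380-53761257 (mm9, plus strand). It had 47.0, 40.02 and 11.4 CPM in Notch1-/- day 6 and 179, 164 and 139 CPM in WT day 6, without overlap. The Notch1-/- mean was 20.4% of the WT mean (log2FC -2.29, SE 0.84). At day 0 it had 258, 8 and 13 counts in Notch1-/- cells, or 2.56, 0.0703 and 0.130 CPM, and 0.161, 0.153 and 0.127 CPM in WT cells. Notch1-/- day 0 library 1 alone was high. With it the Notch1-/- mean on day 6 was 35.7 times the day 0 mean (log2FC 5.16), and without it the log2FC was 8.34.

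Tbx3 is a T-box repressor of the limb, the heart and the pluripotent state. It lay at chr5:120103347-120134813 (mm9, plus strand). Other loci covered 75.3% of its exon bases, so the authors' FPKM is used here too. It had 24.6, 34.0 and 11.3 FPKM in Notch1-/- day 6 and 48.4, 47.0 and 45.4 FPKM in WT day 6, with a Notch1-/- mean of 49.7% of the WT mean (log2(FPKM + 1) difference -1.11, SE 0.36). Tbx3 differed from the other 7 in being expressed already at day 0, with 31.6, 52.5 and 26.1 FPKM in Notch1-/- cells and 40.03, 24.5 and 27.3 FPKM in WT cells. Its Notch1-/- libraries on day 6 overlapped those of day 0 (mean 0.634 times the day 0 mean), and its WT libraries on day 6 lay above all 3 of day 0 (1.53 times). By counts the WT change had the opposite sign, with a log2FC of -0.26.

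The merged locus that holds Tbx2 lay at chr11:85123655-85655450 (mm9), 44382 bases before the Tbx4 locus. It had 25.2, 27.7 and 22.4 FPKM in Notch1-/- day 6 and 37.0, 35.2 and 30.6 FPKM in WT day 6. At day 0 it had 20.9, 16.0 and 16.6 FPKM in Notch1-/- cells and 34.4, 20.5 and 23.8 FPKM in WT cells. These values belong to Bcas3, Ppm1d and Tbx2 together, and nothing about Tbx2 can be read from them.

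**Figure D2:**
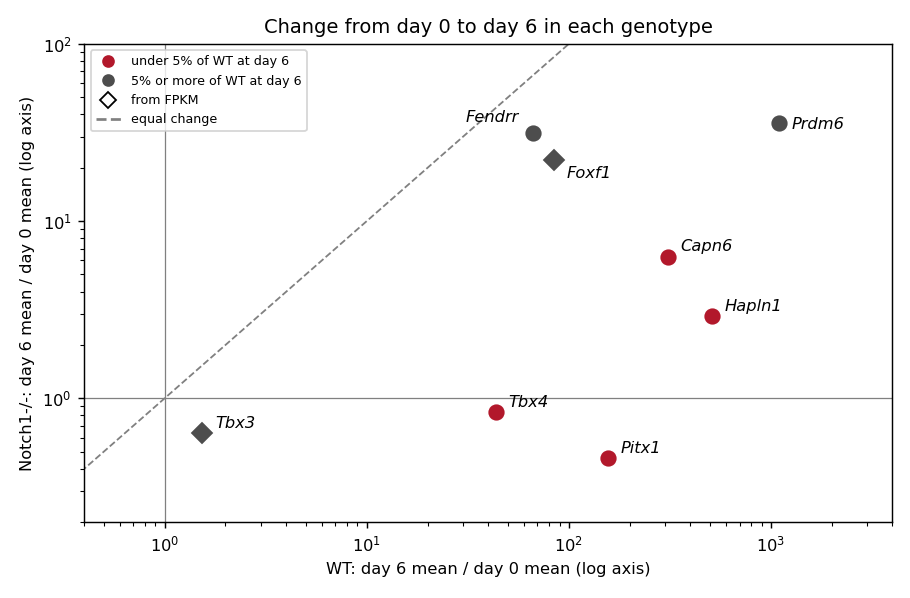
Change over differentiation in Notch1-/- cells (vertical) against that in WT cells (horizontal), each as the day 6 mean over the day 0 mean on logarithmic axes. Red marks genes under 5% of WT at day 6, diamonds are FPKM and the dashed line is equal change; all 8 genes lie under the line, and Pitx1, Tbx4 and Tbx3 lie under 1 on the vertical axis.

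The 2 sets can be put beside the change over differentiation in each genotype. In WT cells the day 6 mean was 1094 times the day 0 mean for Prdm6, 512 times for Hapln1, 309 times for Capn6, 156 times for Pitx1, 66.8 times for Fendrr and 43.4 times for Tbx4. In Notch1-/- cells the order was another: 35.7 times for Prdm6, 31.5 for Fendrr, 6.29 for Capn6, 2.90 for Hapln1, 0.837 for Tbx4 and 0.460 for Pitx1. Single libraries moved some of the Notch1-/- values by over 1.5 times. Without Notch1-/- day 0 library 1 it was 327 times for Prdm6 and 10.2 times for Capn6, and without Notch1-/- day 6 library 3 it was 1.61 times for Hapln1. For Foxf1, at 22.2 times by FPKM, it was 14.6 times without Notch1-/- day 6 library 1 and 53.7 times without Notch1-/- day 0 library 3. The split and the WT change both contain the WT day 6 level, by which the genes were also chosen. A match between them is therefore in part built in, and the order is only a description. The split followed the size of the change in WT cells only in part: the lost genes Hapln1, Capn6 and Pitx1 came above the lowered Fendrr. The other 2 of these 6 departed from that order. Prdm6, with the largest change in WT, was only lowered, and Tbx4, with the smallest of these 6, was lost. By FPKM, the lowered Foxf1 and Tbx3 had WT day 6 means of 84.9 and 1.53 times the day 0 mean. The WT folds of Prdm6 and Hapln1 rest on few day 0 counts, 15 to 22 and 9 to 14 per library. Notch1-/- libraries overlapped between the days for Tbx4 and Hapln1 and did not for Capn6, Fendrr, Prdm6 and Foxf1, which were higher on day 6, or for Pitx1, which was lower. The share of all loci whose groups do not overlap was not computed, so these overlaps are only a description. By edgeR calls, which are another criterion, 35.9% of the 23991 loci tested differed between days in Notch1-/- cells and 43.1% in WT cells. At day 6, where 28.1% of all loci were called between genotypes, none of the 8 genes had overlapping groups, and since they were chosen by that difference nothing is read from it. The median log2FC over the 6 genes with counts was -5.38 at day 6 between genotypes, against 0.01 over all loci, 7.78 in WT over the days, against -0.12, and 2.099 in Notch1-/- over the days, against -0.02.

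Per unit of length, the genes had very different levels in WT embryoid bodies. Mean FPKM in WT day 6 was 135 ± 34.2 for Capn6, 46.9 ± 1.52 for Tbx3, 41.4 ± 9.66 for Pitx1, 40.9 ± 3.81 for Prdm6, 31.7 ± 13.7 for Tbx4, 15.0 ± 3.69 for Foxf1, 6.04 ± 1.39 for Hapln1 and 5.82 ± 1.94 for Fendrr. Capn6 was apart from all others. Tbx3, Pitx1, Prdm6 and Tbx4 lay within about 1 SD of their neighbours in this order, as did Hapln1 and Fendrr, so the order within those runs is not settled. The day 6 libraries also differed among themselves in a shared way. WT day 6 library 3 was the lowest of its group for all 8 genes, and Notch1-/- day 6 library 3 was the lowest for 7, with Hapln1 as the exception.

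At day 0 the genotypes can be tested, and there 1 gene was called, which for 6 genes is near the share of all loci. With edgeR's quasi-likelihood test and Benjamini-Hochberg adjustment over all loci, 1 of the 6 genes with counts was called, beside 9.56% of all loci tested (3.71% higher and 5.86% lower). Fendrr was lower in Notch1-/- cells, with 42, 33 and 49 counts, than in WT cells, with 264, 103 and 146 counts. Its levels were 0.417, 0.290 and 0.491 CPM in Notch1-/- and 1.93, 0.878 and 1.23 CPM in WT, without overlap (log2FC -1.76, SE 0.48, edgeR adjusted p = 0.0390). This is a difference between very low levels, and the call was lost in 10 of the alternatives. Among them were an edgeR fit of only the 6 day 0 libraries (adjusted p = 0.0888) and leaving out WT day 0 library 1 (0.154). Leaving out Notch1-/- day 0 library 1, 2 or 3 lost it too (0.0519, 0.150 and 0.0732). So did limma on log2(FPKM + 1) and log2(FPKM + 0.1) (adjusted p = 0.817 and 0.346). It was kept with the replicate block (edgeR adjusted p = 0.0166) and by DESeq2 (adjusted p = 0.00590).

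The other 5 genes were not called at day 0 by edgeR. The log2FC was -0.03 (SE 0.35, adjusted p = 0.969) for Pitx1, -0.68 (SE 0.40, adjusted p = 0.284) for Tbx4, 0.91 (SE 0.73, adjusted p = 0.435) for Hapln1, 1.24 (SE 0.58, adjusted p = 0.184) for Capn6 and 2.62 (SE 1.04, adjusted p = 0.127) for Prdm6. The 3 positive values rest on wide spreads, and that of Prdm6 on Notch1-/- library 1 alone: without it the log2FC was -0.56. From FPKM with limma, where 7.58% of 20055 loci were called, Foxf1 differed by -0.06 (adjusted p = 0.933) and Tbx3 by 0.23 (adjusted p = 0.706) on the log2(FPKM + 1) scale. A missed threshold does not show that the genotypes had the same level.

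**Figure D3:**
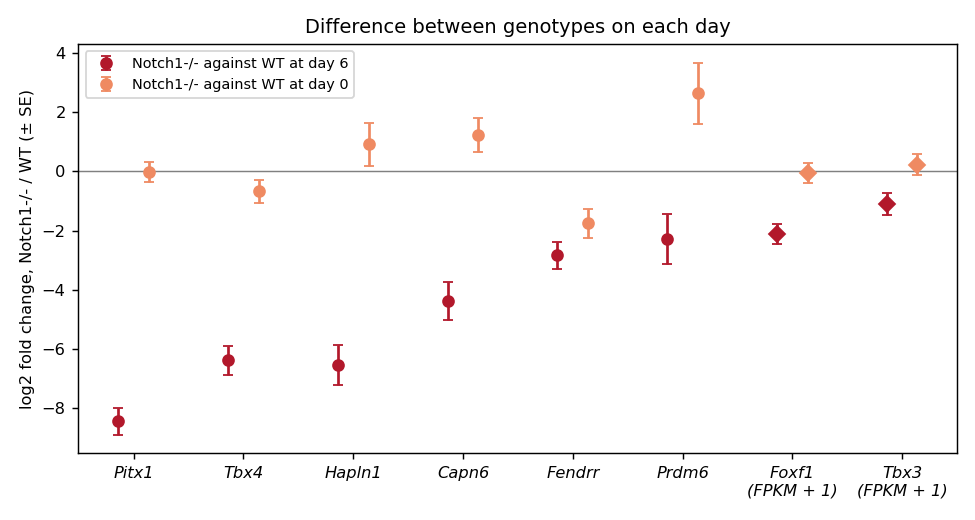
Log2 fold change of Notch1-/- over WT for each gene at day 6 (red) and at day 0 (orange), with standard errors; diamonds are differences of log2(FPKM + 1). At day 6 all 8 genes lie under 0, from -8.44 for Pitx1 to -1.11 for Tbx3, and at day 0 Fendrr, at -1.76, was the one gene called.

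Other genes of the same tissues were followed through 8 lists. The lists were chosen with earlier results known and are described by their counts. At day 6, rose and fell mean higher and lower in Notch1-/- than in WT, not a change over the days. List genes said to rise or fall, or be higher, without a day 6 p-value beside them had edgeR adjusted p-values between 3.49e-07 and 0.00318. Of 32 genes of the allantois and extraembryonic mesoderm, 20 were tested. In Notch1-/- against WT embryoid bodies, 12 of them fell and 4 rose, against 14.4% and 13.7% of all loci, and the list median was -1.65, against 0.01 for all loci. Postn, a matrix protein of mesenchyme, had 0.958 ± 0.564 CPM in Notch1-/- and 137 ± 26.4 CPM in WT (log2FC -7.15, SE 0.67). At day 0 Postn had 30.2 ± 19.5 CPM in Notch1-/- and 50.2 ± 26.0 CPM in WT. Bmp2, a growth factor of extraembryonic mesoderm, had 17.6 ± 8.05 CPM in Notch1-/- and 94.4 ± 8.999 CPM in WT (-2.42, SE 0.33). Itga4, the integrin by which the allantois attaches to the chorion, also fell (-4.37, SE 0.50), with 51.1% of its exon length shared. Mesp1, of nascent mesoderm, rose (4.84, SE 0.60) on low counts, with 4.95 ± 1.57 CPM in Notch1-/- and 0.172 ± 0.0511 CPM in WT, and 63.2% of its exon length shared. Without library 3 of both day 6 groups, 7 fell and 2 rose, and 2 rose without WT day 6 library 3 or Notch1-/- day 6 library 2 alone.

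Of 39 genes of hindlimb and limb bud mesenchyme, 23 were tested, and 11 fell and 1 rose at day 6, with a median of -0.74. Hoxc9, a posterior Hox gene of the hindlimb field, had 0.109 ± 0.0429 CPM in Notch1-/- and 27.5 ± 5.68 CPM in WT (log2FC -7.98, SE 0.44), with 48.7% of its exon length shared. Hoxd13, of the distal limb, had 1.16 ± 0.448 CPM in Notch1-/- and 31.4 ± 2.70 CPM in WT (-4.76, SE 0.52). Prrx1, of limb bud mesenchyme, and Meis1, of the proximal limb, fell too (-4.71, SE 0.57, and -3.96, SE 0.44). Prrx1 was already present at day 0, with 140 ± 91.2 CPM in Notch1-/- and 78.5 ± 44.2 CPM in WT. Its change over the days in WT cells was not called (log2FC -0.59, SE 0.49). The genes that moved thus included posterior and proximal patterning factors of the limb.

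Of 25 genes of lateral plate and splanchnic mesoderm, 15 were tested. At day 6, 9 fell and none rose by edgeR, with a median of -2.24. None rose at an unadjusted p under 0.05 either, and none by DESeq2 or limma. Foxf2, the closest relative of Foxf1, had 0.449 ± 0.249 CPM in Notch1-/- and 14.9 ± 1.14 CPM in WT (log2FC -5.05, SE 0.52). Gata5, a zinc finger factor of cardiac and endodermal precursors, had 0.0575 ± 0.0381 CPM in Notch1-/- and 16.6 ± 7.69 CPM in WT (-8.16, SE 0.91). Ihh, a hedgehog ligand of the visceral endoderm, fell as well (-3.78, SE 0.32).

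The T-box family moved in both directions. Of 14 relatives of Tbx4, 11 were tested, and 5 rose and 4 fell in Notch1-/- embryoid bodies, with a median of 0.80. Tbx20, a cardiac and lateral plate factor, had 22.5 ± 13.5 CPM in Notch1-/- and 265 ± 70.3 CPM in WT (log2FC -3.56, SE 0.49). At day 0 Tbx20 was higher in Notch1-/-, with 11.2 CPM against 1.63 CPM in WT (log2FC 2.78, edgeR adjusted p = 0.00344). Tbx5, the forelimb counterpart of Tbx4 and the next named locus beside Tbx3, had 0.925 ± 0.496 CPM in Notch1-/- and 5.63 ± 1.18 CPM in WT (-2.61, SE 0.46). Of the 5 that were higher in Notch1-/-, Mga, a large repressor with a T-box domain named here after its values were seen, was the most abundant. It had 845 ± 39.7 CPM in Notch1-/- and 454 ± 18.6 CPM in WT (0.89, SE 0.21, edgeR adjusted p = 0.00718). At day 0 Mga had 783 CPM in Notch1-/- and 688 CPM in WT, so its level over the days fell in WT (log2FC -0.60) and changed little in Notch1-/- (0.11). The other 4 had under 2 CPM on average: T, of the primitive streak, had 1.09 ± 0.535 CPM in Notch1-/- and 0.158 ± 0.09995 CPM in WT (2.78, SE 0.57), with 86.9% of its exon length shared. Tbx22, of the palate, rested on 55 summed counts in Notch1-/- and 3 in WT, a ratio of 17.5 with a 95% counting interval of 5.67 to 87.3. Without WT day 6 library 2, and on the FPKM scale, 3 T-box genes rose.

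Relatives of the other genes mostly did not pass the test. Of 34, 22 were tested, 1 rose, 1 fell and 20 were not called, with a median of 0.09. Otx2, a homeodomain relative of Pitx1 from the anterior epiblast, had 105 ± 33.4 CPM in Notch1-/- and 20.3 ± 4.62 CPM in WT (log2FC 2.37, SE 0.48), and Foxf2 was the one that fell. Prdm2 had 214 ± 7.04 CPM in Notch1-/- and 166 ± 2.04 CPM in WT (0.37, edgeR adjusted p = 0.112), and Capn2, a catalytic calpain, had 68.4 ± 12.2 CPM in Notch1-/- and 116 ± 9.97 CPM in WT (-0.77, edgeR adjusted p = 0.106). Neither of these passed the threshold in the fit of all libraries.

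Hapln1 works in a matrix of hyaluronan and large proteoglycans. Of 15 genes of that matrix, 13 were tested, 6 fell and 3 rose at day 6, with a median of -1.04. Vcan, which encodes versican, had 94.4 ± 24.5 CPM in Notch1-/- and 746 ± 121 CPM in WT (log2FC -2.98, SE 0.28). Cd44, a hyaluronan receptor, had 14.1 ± 2.27 CPM in Notch1-/- and 123 ± 10.6 CPM in WT (-3.13, SE 0.46). The proteoglycans Acan, of cartilage, and Ncan, of the nervous system, were higher in Notch1-/- than in WT at day 6 (3.21, SE 0.32, and 2.70, SE 0.37). Acan had 6.54 ± 2.01 CPM in Notch1-/- and 0.706 ± 0.131 CPM in WT, and Ncan had 8.23 ± 4.05 CPM and 1.27 ± 0.348 CPM. At day 0 Acan had 21.2 CPM in Notch1-/- and 6.11 CPM in WT, and Ncan had 11.9 and 17.3 CPM. Acan was thus already higher in Notch1-/- at day 0 (log2FC 1.79, edgeR adjusted p = 0.00250). Over the days Acan fell in both genotypes (log2FC -1.69 in Notch1-/- and -3.11 in WT).

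BMP signalling acts upstream of several T-box genes. Of 20 genes of that pathway, 15 were tested, 9 fell and 1 rose, with a median of -1.19. The inhibitory Smad6 had 17.3 ± 7.68 CPM in Notch1-/- and 134 ± 19.99 CPM in WT (log2FC -2.95, SE 0.36). Id2, a direct target of BMP, had 13.4 ± 1.44 CPM in Notch1-/- and 137 ± 6.35 CPM in WT (-3.36, SE 0.37). The pseudoreceptor Bambi fell (-2.30, SE 0.29), and so did Smad9 (-2.28, SE 0.30), with 66.3% of its exon length shared. The 1 gene of the list that rose, Chrd, encodes an extracellular inhibitor and is named after its values were seen: it had 10.5 ± 4.87 CPM in Notch1-/- and 4.46 ± 0.158 CPM in WT (1.23, SE 0.31, edgeR adjusted p = 0.0113). Inhibitors of the pathway thus moved in both directions.

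Of 15 subunits of the Polycomb and Trithorax complexes that Fendrr is known to bind, 9 were tested and none was called at day 6 in either direction by edgeR in the fit of all libraries without a block, with a median of 0.24. At an unadjusted p under 0.05, 4 were higher and 1 was lower, DESeq2 called none higher and 1 lower, and limma on log2(FPKM + 1) called 2 higher and 1 lower. Jarid2 differed by 0.60 (edgeR adjusted p = 0.116), Wdr5 by 0.57 (0.0502), Rbbp4 by 0.46 (0.0647) and Rbbp7 by -0.46 (0.0632), and for the last 3 most of the exon length was shared with other loci. The absence of calls depended on the fit: with a replicate block Wdr5 (adjusted p = 0.0165), Rbbp4 (0.0481) and Rbbp7 (0.0484) passed in edgeR, and with only the 6 libraries of day 6 all 4 passed, with adjusted p-values of 3.66e-04 to 0.0149.

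**Figure D4:**
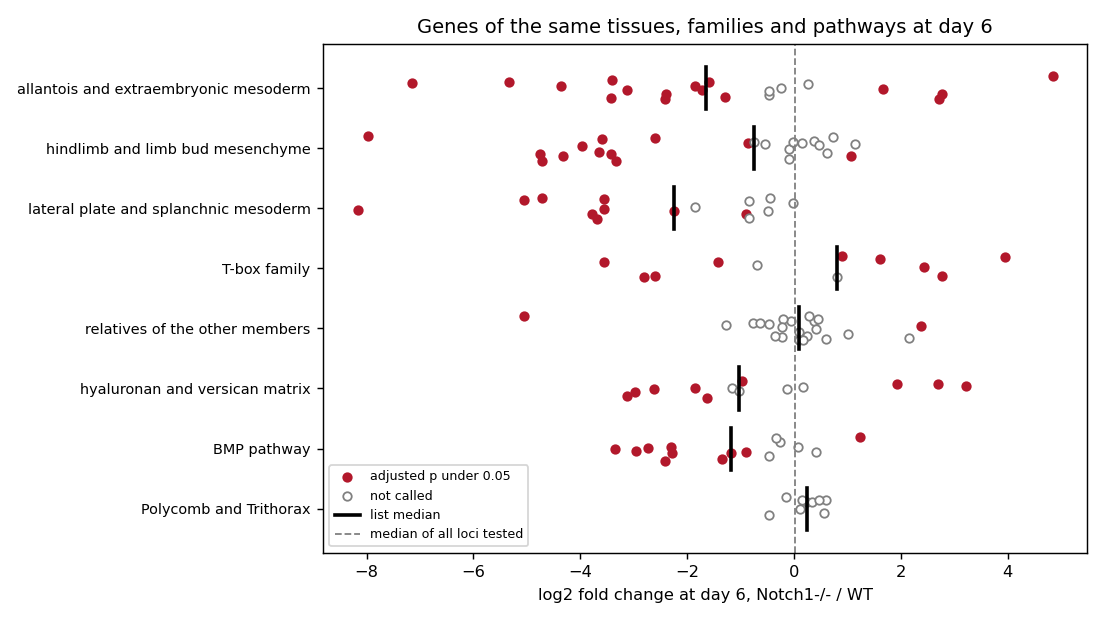
Log2 fold change of Notch1-/- over WT at day 6 for the tested genes of 8 lists, 1 point a gene; filled points passed an adjusted p under 0.05, black bars are list medians and the dashed line is the median of all loci. No gene of the lateral plate list was called higher, T-box genes were called on both sides, and no Polycomb or Trithorax subunit was called in this fit, edgeR on all libraries without a block.

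Few list genes were called between genotypes at day 0, where 3.71% of all loci were higher and 5.86% lower. Of the allantois list none was called by edgeR, against 2 higher and 3 lower at an unadjusted p under 0.05, 2 higher and 1 lower by DESeq2 and 1 lower by limma. Of the hindlimb list 1 was lower, and of the lateral plate list 1 was higher and 1 lower. Of the T-box family 2 were higher, of the relatives 1 was higher and 1 lower, and of the matrix and BMP lists 1 each was higher. Of the Polycomb and Trithorax list none was called by edgeR, with 1 higher at an unadjusted p under 0.05, 1 higher by DESeq2 and none by limma. Over differentiation in WT cells, 15 genes of the allantois list rose and 2 fell, 15 of the hindlimb list rose and 4 fell, and 7 of the lateral plate list rose and 1 fell, where 18.4% of all loci rose and 24.7% fell. In Notch1-/- cells 11 of the allantois list rose and 3 fell, 7 of the hindlimb list rose and 7 fell, and 2 of the lateral plate list rose and 5 fell, where 17.2% of all loci rose and 18.7% fell.

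The surroundings of the 9 loci were also read. Of the loci within 250 kb that are not among the 9, 55 were tested, and 30 of them, 54.5%, were lower in Notch1-/- embryoid bodies, against 14.4% of all loci, while 4 were higher. Windows of Foxf1 and Fendrr and of Tbx2 and Tbx4 overlap, and neighbouring loci are not independent, so this is a description. Some unannotated loci, beside Pitx1, Hapln1, Tbx4 and Prdm6, passed the filter on low counts only through their WT day 6 libraries. Such loci could hardly come out otherwise than lower, so the counts around the genes follow in part from the filter. Beside Hapln1, 5 of 6 tested loci were lower. Vcan, 43396 bases away, was lower, with 94.4 ± 24.5 CPM in Notch1-/- and 746 ± 121 CPM in WT. Edil3, an endothelial matrix protein, was lower too, with 1.64 ± 0.489 CPM in Notch1-/- and 16.4 ± 0.704 CPM in WT (log2FC -3.32, SE 0.59). Around Pitx1, 9 of 15 were lower. The named loci next to it, Catsper3 and Gm47071, fell by 2.90 and 2.70 on the log2 scale. Catsper3 had 0.0868 ± 0.0184 CPM in Notch1-/- and 0.650 ± 0.133 CPM in WT, and was lower at day 0 too (log2FC -2.53, edgeR adjusted p = 0.0137). Also lower were 4 loci without annotation within 8287 bases of Pitx1, singled out after their values were seen. These 4 passed the filter only through WT day 6, so nothing is read from their being lower. Named neighbours said to fall or rise, or to be lower or higher, at day 6 had edgeR adjusted p-values between 1.39e-05 and 0.0254.

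Next to Tbx4, 2610027K06Rik had 0.473 ± 0.251 CPM in Notch1-/- and 3.75 ± 0.911 CPM in WT (log2FC -2.99, SE 0.47), while Brip1os, the next named locus on the other side, was not called (-0.49, edgeR adjusted p = 0.0802). Appbp2, before the Tbx2 locus, fell little (-0.57, SE 0.15). Mthfsd, whose locus begins 155 bases from Fendrr and covers the exons of Foxf1, had 33.04 ± 6.87 CPM in Notch1-/- and 49.6 ± 4.08 CPM in WT (-0.59, SE 0.17). Beside Capn6 no tested locus was lower. Its neighbours Pak3, a kinase 4440 bases away, and Dcx, a microtubule protein of neurons, had higher levels in Notch1-/- embryoid bodies, with 8.44 ± 3.32 CPM against 2.69 ± 0.502 CPM in WT for Pak3 and 2.55 ± 0.951 CPM against 0.701 ± 0.183 CPM in WT for Dcx (log2FC 1.65 and 1.87).

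**Figure D5:**
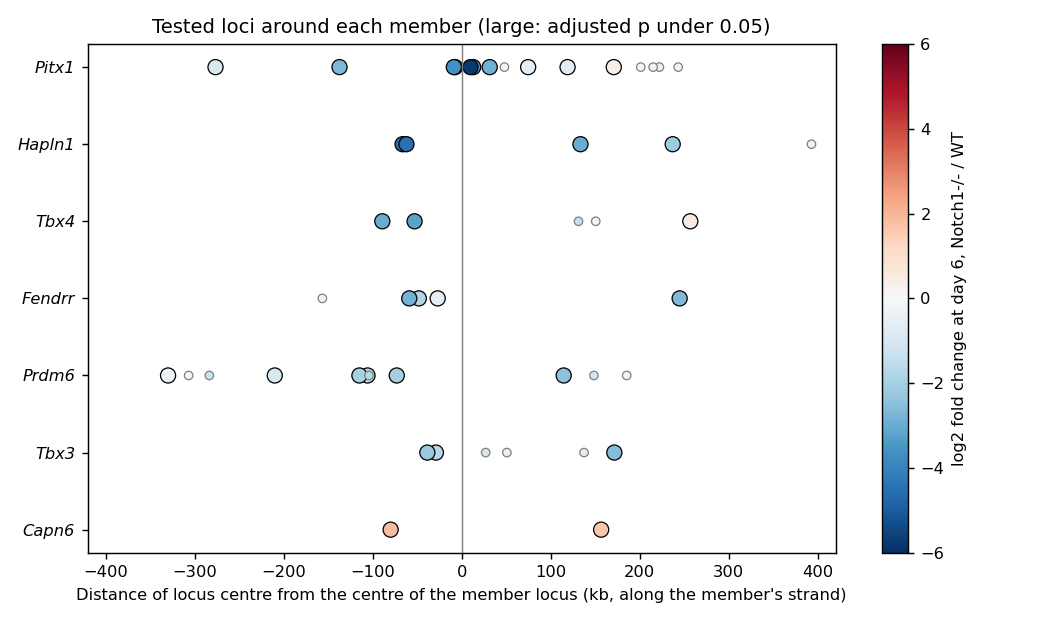
Tested loci around 7 of the genes, placed by the distance of their centres from the centre of the gene's locus in kb along its strand; colour is the log2 fold change of Notch1-/- over WT at day 6, and large points passed an adjusted p under 0.05 (Edil3, with its centre beyond the axis, is not drawn). Lower loci (blue) lie on both sides of Pitx1, Hapln1, Prdm6 and Tbx3, and both loci beside Capn6 are higher (red).

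The genes nearest in pattern over the 12 libraries were found by Pearson's r of log2 CPM among 7859 named loci, clone names left out. Since the 4 groups set most of this likeness, r is a description. For Pitx1 they were Hp1bp3 (r = 0.99), Brf2 and Cdc42ep1 (both 0.98). For Tbx4 they were Lsp1, Eepd1 and Vcan (all 0.98), and for Hapln1 Igfbp5 and Cdh5 (both 0.98) and Tdo2 (0.97). Of these, Igfbp5 had 8.44 CPM in Notch1-/- day 6 and 462 CPM in WT day 6, and Cdh5, the cadherin of endothelium, had 1.25 CPM in Notch1-/- day 6 and 49.5 CPM in WT day 6. For Capn6 they were Rhou, Phf2 and Pmp22 (all 0.99). For the lowered genes, Fendrr was followed by Uvssa, Sos2 and Gabre (all 0.99) and Prdm6 by Amot (0.996), Npc1 and Peg3 (both 0.98).

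Markers of other cells were also read at day 6, where edgeR called 14.4% of all loci lower in Notch1-/- and 13.7% higher. In lists this short, counts of 1 or 2 are near those shares, and nothing is read from them. In bulk RNA, fewer cells of a type and less RNA per cell cannot be told apart. The summed CPM of 7 of 9 blood progenitor markers, those linked to a locus, was 17.3 to 26.9 in Notch1-/- and 116 to 228 in WT day 6 (5 of 7 lower), that of 9 of 10 endothelial markers 175 to 349 in Notch1-/- and 434 to 658 in WT (7 of 9 lower), and that of 9 of 10 visceral endoderm markers 23.7 to 55.7 in Notch1-/- and 205 to 283 in WT (6 of 9 lower). For 7 smooth muscle markers it was 107 to 135 in Notch1-/- and 492 to 740 in WT, with 1 of 6 tested higher and 2 lower. Acta2 had 4.41 CPM in Notch1-/- and 384 CPM in WT, while Cnn1 had 21.9 CPM in Notch1-/- and 4.15 CPM in WT. Pluripotency markers, 9 of 12 linked, summed to 762 to 1213 in Notch1-/- and 466 to 629 in WT (3 of 9 higher), and 8 of 10 cardiomyocyte markers to 38.9 to 46.8 in Notch1-/- and 32.7 to 34.3 in WT (2 of 8 higher and 2 lower). The part of these cells in the values above was not tested.

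Feeder fibroblast markers, 19 of 20 linked, summed to 140 to 205 CPM in Notch1-/- day 6 and 991 to 1464 CPM in WT day 6. Of 18 tested, 8 were lower and 2 higher, against 14.4% and 13.7% of all loci. Much of the sum at day 6 was Col1a1, with 28.5 CPM in Notch1-/- and 735 CPM in WT. The markers S100a4, Ccl2 and Lox were low in both, at 0.259, 1.12 and 1.89 CPM in Notch1-/- and 0.274, 1.83 and 1.32 CPM in WT. Other markers were not low in WT: Col3a1 had 2.51 CPM in Notch1-/- and 138 CPM in WT, and Pdgfrb had 19.6 and 108 CPM. Thbs2, Thy1 and Mmp3 went the other way, with 8.11, 9.77 and 5.81 CPM in Notch1-/- and 1.09, 3.70 and 2.08 CPM in WT. At day 0, where the sum was 535 to 2077 CPM in Notch1-/- and 856 to 3234 CPM in WT, the means of the 6 genes read from counts lay between 0.178 and 5.65 CPM in Notch1-/- and between 0.0935 and 3.43 CPM in WT. Il6 and Tagln had 0 counts in all libraries, and nearly all of their exon length was shared with other loci. Library 3 of each day 6 group, the low one for most of the 9 genes, was not low for all markers. It had the lowest endothelial, blood and smooth muscle sums of its group. These were 175, 17.3 and 107 CPM in Notch1-/- and 434, 116 and 492 CPM in WT. Its visceral endoderm sum (49.7 CPM in Notch1-/- and 272 CPM in WT) and its pluripotency sum were lowest in neither group. The feeder sum of library 3 was the lowest in WT, at 991 CPM, and the highest in Notch1-/-, at 205 CPM. The cardiomyocyte sum was lowest in library 3 of Notch1-/- only.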

How the data were processed

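RNA was compared between Notch1-/- and WT cells on each day, and between days in each genotype, 3 libraries per group. The submitters' processing notes name Cufflinks 2.1.1, DESeq, HTSeq 0.5.4p3, TopHat2 2.0.8 and build mm9. The sources used here give neither their roles nor a strand setting. The authors deposited transcript models merged over the libraries, a table of raw counts per locus, and a table of FPKM, which the authors scaled for length and depth.

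The members and the gene lists were chosen with earlier results of these data known. Symbols were assigned by matching exon and intron lengths to GENCODE transcripts, without converting coordinates: 16799 loci were linked to 1 gene, 1771 to several and 21469 to none. Loci whose shift between builds differed by over 100000 bases from 6 neighbouring matches on each side were not linked. Where exons are shared between loci, counts are unreliable, and FPKM was used for Foxf1 and Tbx3. Of the 9 genes, 8 passed the filter on low counts, and Foxf1 did not.

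Counts were tested with edgeR 4.0.16 (quasi-likelihood, TMM scaling, default filter, R 4.3.3), with all 12 libraries in 1 fit, and p-values were adjusted by Benjamini-Hochberg over 23991 loci, with calls under 0.05. FPKM was tested with limma 3.58.1 on log2(FPKM + 1) for loci over 0.1 FPKM in at least 3 libraries. Genes named from each list are the 4 with the smallest p at day 6. Also named are the 3 nearest patterns of each gene and the nearest named loci on each side. Alternatives were DESeq2 1.42.0, upper quartile scaling, no filter, the 6 libraries compared alone, FPKM, a replicate block, and leaving out each library. Replicates of each group differed by 41.3 to 404 chi-square per degree of freedom, so no library was a copy. Depth was 100637179 to 134662426 counts, and intervals cover counting error only. Same-numbered libraries of Notch1-/- and WT deviated together at day 0 (correlations 0.165 to 0.398 over loci, all 3 over 0.1). At day 6 the correlations were -0.0115 to 0.118. The labels do not call these libraries pairs, and the main fit ignored the numbers on both days. Its p-values, those of day 0 included, are therefore unpaired. Only the replicate block, an alternative, used the numbers.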

Additional observations from a re-analysis of the deposited data

Results flagged for a closer look

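The difference between Notch1-/- and WT was compared between the days by the interaction in the same edgeR fit, with adjustment over all loci. It was called for 23 of the 30 genes named from the lists, and for 11.3% of all loci. The 30 genes were named for their small p at day 6, so this share follows in part from their choice, and the values are a description and no independent test. The values are log2, the Notch1-/- over WT effect at day 6 minus that at day 0. The effect was more negative at day 6 for Hoxc9 -7.56, Postn -6.42, Tbx20 -6.34, Gata5 -6.14, Hoxd13 -5.86, Prrx1 -5.55, Foxf2 -5.55, Id2 -4.94, Meis1 -4.65 and Ihh -4.30. The same held for Itga4 -3.88, Bmp2 -3.47, Smad6 -3.09, Vcan -2.99, Tbx5 -2.85, Cd44 -2.83, Bambi -2.66 and Smad9 -2.46. It was more positive at day 6 for Mesp1 5.53, T 4.68, Tbx22 3.98, Ncan 3.24 and Acan 1.42. Of these, Mesp1 and T rest on 3 and 2 summed counts in Notch1-/- day 0, with 6 and 10 in WT day 0, and Tbx22 on 3 summed counts in WT day 6. The 9 genes themselves are left out because their choice used day 6 as well.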

How the results depend on the processing

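Leaving out 1 library at a time, or library 3 of both day 6 groups together, gave 0 to 1 genes called at day 0 of 6, against 1 in the fit of all libraries. It gave medians of the 6 genes of -5.70 to -5.07 at day 6 between genotypes, 7.65 to 7.99 over the days in WT and 1.73 to 2.41 over the days in Notch1-/-. The allantois list had 7 to 12 genes lower and 2 to 4 higher, and the T-box list 3 to 5 higher. Loci called were 1124 to 5983 at day 0 and 3273 to 8002 at day 6, against 2294 and 6741. Genes under 5% of WT were 3 to 4, 3 with a limit of 2% and 4 with 10%. With only the 6 libraries compared, 0 genes were called at day 0, and 706 loci at day 0 and 11055 at day 6. DESeq2 called 3685 loci at day 0. On log2(FPKM + 1), 0 of the genes were called at day 0, the medians were -3.54 at day 6, 4.58 in WT and 0.40 in Notch1-/-, 3 T-box genes were higher and 1520 loci were called at day 0. On log2(FPKM + 0.1), 0 genes were called, the WT median was 6.28 and 3 T-box genes were higher.

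Signs changed for small differences. Pitx1 at day 0 was 0.0313 with upper quartile scaling and 0.0344 with DESeq2, and -0.18 to 0.10 with libraries left out. Tbx4 over the days in Notch1-/- was -0.44 to 0.15, Prdm6 at day 0 was -0.56 to 3.19, Foxf1 at day 0 was -0.16 to 0.00244 and Tbx3 at day 0 was -0.0557 to 0.43. Tbx3 over the days in WT was -0.26 by counts. The cause was not tested. Upper quartile scaling moved the median of all loci by -0.16 over the days in both genotypes. With a replicate block, 1 of the 6 genes was called at day 0, Fendrr with -1.69 (adjusted p = 0.0166), as without it, and 3335 loci were called. The block brought Rbbp4 (0.46), Rbbp7 (-0.47) and Wdr5 (0.57) past the threshold at day 6 and changed no other call of the genes named from the lists. Over all pairs of groups, libraries with the same title number correlated by -0.0323 to 0.398, 12 of 18 over 0.1.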
